A study of Homo sapiens with 8 samples.

Results

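A set of 10 genes that restrain or report TGF-beta signalling was followed: the inhibitory SMADs SMAD7 and SMAD6, the nuclear corepressors SKIL, SKI and TGIF1, the membrane inhibitors PMEPA1, LDLRAD4 and BAMBI, and the growth-arrest genes KLF10 and CDKN2B. They were chosen by symbol, with earlier results of these data in view, and all 10 members were found among the 57445 genes of the deposited count table. All 10 also passed the filter on low counts, which kept 15806 genes averaging 10 counts or more. Because the choice had the effects of astrocytes and of connexin depletion in view, those effects are given for the members as a description. Where members past a threshold are counted for these effects, the share of all tested genes stands beside the count and nothing is read from it.

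TGF-beta ligands bring together type II and type I serine/threonine kinase receptors, which phosphorylate SMAD2 and SMAD3. These pair with SMAD4 in the nucleus and switch on targets that include the pathway's own brakes. SMAD7 blocks the receptor and recruits ubiquitin ligases to it, SKIL and SKI repress SMAD target genes, and PMEPA1 and LDLRAD4 hold receptor-activated SMADs away from the receptor. In breast carcinoma the pathway is known for arrest of epithelial growth early and for invasion and metastasis later.

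The cells were MDA231-BrM2, a breast cancer line selected for metastasis to the brain, and their RNA was pulled down with its polysomes on anti-GFP beads (translating ribosome affinity purification, TRAP). Each of the 4 groups had 2 libraries. Cells with Cx43 hairpin 1 or Cx43 hairpin 2, against the gap junction protein connexin 43, were grown with astrocytes, cells with a control hairpin were grown with astrocytes (the control coculture), and cells with the control hairpin were grown alone. For coculture, astrocytes and carcinoma cells were mixed at 1 to 1 for 24 h. All groups carry a hairpin and the TRAP tag in 1 cell line, the species of the astrocytes is not given in the sources used here, and Cx43-depleted cells without astrocytes were not analysed here. The question, going by the series title, is what gap junctions with astrocytes do to carcinoma cells.

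Reads counted in genes ranged from 38219702 to 48997555 per library, so that 3 counts stood for 0.0624 to 0.0805 CPM (counts per 1000000 reads counted in genes), a floor that covers counting error only. The targeted gene GJA1 was at 27.8 and 27.8 CPM under hairpin 1, 31.7 and 33.8 CPM under hairpin 2, 65.9 and 64.7 CPM in control cocultures and 51.1 and 46.3 CPM in control cells alone. Depleted cells had 0.462 of the control coculture level (log2 difference -1.11, SE 0.061, edgeR adjusted p = 7.89e-06). The hairpin 1 libraries differed most from each other, with a median absolute log2 difference of 0.137 over tested genes, against 0.0682 with hairpin 2, 0.107 in the control coculture and 0.0879 in control cells alone. Library 1 of the control coculture had the highest share of alignments that were not unique, 26.1%, against 14.2% to 21.5% in the others. The mesenchymal line marker VIM was at 1318 to 2175 CPM, and the luminal markers CDH1 and ESR1 stayed at 0.0832 to 0.258 and 0.235 to 0.555 CPM. The other luminal markers listed were higher, with EPCAM at 8.26 to 12.7, GATA3 at 5.12 to 6.95, ERBB3 at 1.73 to 2.90 and PGR at 0.386 to 1.54 CPM. Of the 5 luminal markers tested, 1 was called lower with astrocytes, where 2.93% of all tested genes were, and none higher, where 8.74% were. P-values rest on 2 libraries a group, called independent in the series design, and in bulk libraries fewer cells of a type and less RNA per cell cannot be told apart.

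Promoter sequence is shown for some members of the patterns described below, since SMAD3 and SMAD4 are known to bind short CAGAC elements and the palindrome GTCTAGAC. BAMBI also had a match and is not shown. RefSeq promoters of GRCh38.p14 were matched for 8 of the 10 members, with 27 start sites between them. Only the 250 bases before each start were searched, on both strands. In the windows below, written 5′ to 3′ on the gene's strand, capitals mark CAGAC, its reverse complement, the palindrome GTCTAGAC, or the 9-base CAGA box AGCCAGACA, which contains CAGAC. SMAD7 is shown at chr18:48949464-48949583 (minus strand), SKIL at chr3:170357550-170357669 (plus), PMEPA1 at chr20:57690696-57690815 (minus), LDLRAD4 at chr18:13217805-13217924 (plus), TGIF1 at chr18:3448181-3448300 (plus) and SMAD6 at chr15:66702206-66702235 (plus).
SMAD7: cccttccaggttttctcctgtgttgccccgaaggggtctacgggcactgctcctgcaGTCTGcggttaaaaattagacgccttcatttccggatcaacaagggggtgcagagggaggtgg
SKIL: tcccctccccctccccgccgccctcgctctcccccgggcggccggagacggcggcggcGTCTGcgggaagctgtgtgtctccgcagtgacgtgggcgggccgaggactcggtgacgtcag
PMEPA1: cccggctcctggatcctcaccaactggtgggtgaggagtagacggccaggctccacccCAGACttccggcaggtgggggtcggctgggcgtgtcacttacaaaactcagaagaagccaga
LDLRAD4: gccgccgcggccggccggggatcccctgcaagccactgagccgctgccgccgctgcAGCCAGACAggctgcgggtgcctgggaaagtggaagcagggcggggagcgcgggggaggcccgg
TGIF1: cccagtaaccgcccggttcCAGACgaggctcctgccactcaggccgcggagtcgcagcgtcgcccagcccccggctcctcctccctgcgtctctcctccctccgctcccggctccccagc
SMAD6: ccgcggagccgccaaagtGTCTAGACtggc

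CAGAC was found before at least 1 start of 6 of the 8 members with a promoter (SMAD7, SKIL, PMEPA1, LDLRAD4, BAMBI and TGIF1), against 42.8% of all 27305 genes with a promoter. A gene with more starts has more bases searched, and LDLRAD4 has 9 starts and TGIF1 7, so these shares of genes are not a like comparison. Over start sites it was found in 15 of 27, of which LDLRAD4 gave 5 and TGIF1 4, against 13345 of all 35116 promoters. AGCCAGACA stood before 2 of the 9 starts of LDLRAD4 and before no start of another member, against 0.231% of all promoters. GTCTAGAC stood before the single start of SMAD6 and of no other member, against 0.182% of all promoters. The single CDKN2B promoter held none of them. A match is a run of letters and not a site, and no match says only that these letters are not in this window.

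SMAD7, the inhibitory SMAD of the TGF-beta branch (ENSG00000101665.4), was at 18.7 and 20.6 CPM under hairpin 1 and 18.8 and 19.1 CPM under hairpin 2, against 15.5 and 14.7 CPM in control cocultures and 11.5 and 10.8 CPM in control cells alone. Every depleted library lay above every control coculture library, and these lay above the control cells alone. The log2 difference was 0.35 (SE 0.072) for both hairpins over the control coculture and 0.44 (SE 0.084) for the control coculture over control cells alone. SMAD6, which acts mainly on BMP signals (ENSG00000137834.10), was far lower, at 2.87 and 3.26 CPM under hairpin 1, 3.23 and 3.12 CPM under hairpin 2, 3.93 and 3.57 CPM in control cocultures and 2.44 and 3.24 CPM in control cells alone. Its control coculture libraries were the highest of all and the depleted libraries overlapped those of control cells alone. Its log2 difference was -0.27 (SE 0.136) for both hairpins over the control coculture and 0.39 (SE 0.158) for the control coculture over control cells alone.

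**Figure D1:**
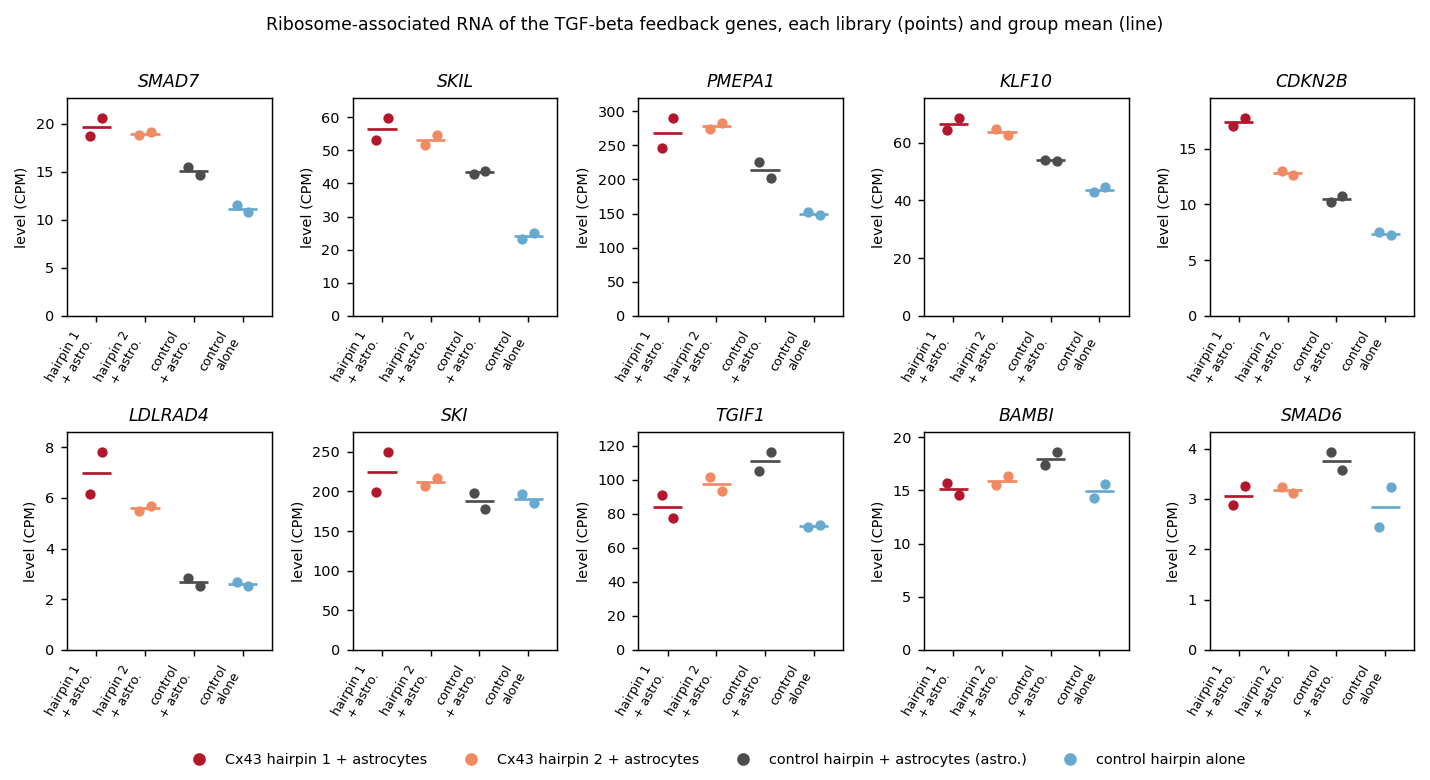
Level of each of the 10 feedback genes in CPM (y axis, from 0) in each library (points, 2 a group) with the group mean (line), from left to right Cx43 hairpin 1, Cx43 hairpin 2 and the control hairpin with astrocytes, and the control hairpin alone. SMAD7, SKIL, PMEPA1, KLF10 and CDKN2B are high with both Cx43 hairpins, lower in the control coculture and lowest in control cells alone, LDLRAD4 is high with both Cx43 hairpins and alike in both control groups, and TGIF1, BAMBI and SMAD6 are highest in the control coculture.

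Among the nuclear corepressors, SKIL (SnoN, degraded and then resynthesized during TGF-beta signalling, ENSG00000136603.9) was at 53.0 and 59.8 CPM under hairpin 1 and 51.6 and 54.8 CPM under hairpin 2, against 42.9 and 43.9 CPM in control cocultures and 23.2 and 24.9 CPM in control cells alone. The groups stepped as for SMAD7, but the gap between cocultured and lone control cells was the wider one. It came to a log2 difference of 0.85 (SE 0.082), or 1.80-fold, against 0.34 (SE 0.070), or 1.26-fold, for both hairpins over the control coculture. SKI, the related proto-oncoprotein (ENSG00000157933.9), was at 199.69 and 250.04 CPM under hairpin 1, 207 and 216 CPM under hairpin 2, 198 and 178 CPM in control cocultures and 197 and 185 CPM in control cells alone. The control groups overlapped, and the depleted libraries lay just above both, the lowest close to the highest control. The log2 difference was 0.21 (SE 0.093) for both hairpins over the control coculture and -0.020 (SE 0.107) for the control coculture over control cells alone. TGIF1, a homeobox corepressor that binds SMAD2 (ENSG00000177426.16), was at 90.8 and 77.4 CPM under hairpin 1 and 101 and 93.3 CPM under hairpin 2, against 105 and 116 CPM in control cocultures and 72.3 and 73.6 CPM in control cells alone. Depleted cells thus lay between the control groups. The log2 difference was -0.29 (SE 0.079) for both hairpins over the control coculture and 0.60 (SE 0.092) for the control coculture over control cells alone.

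Of the membrane inhibitors, PMEPA1, which binds SMAD2 and SMAD3 and leads receptors to degradation (ENSG00000124225.11), was at 247 and 291 CPM under hairpin 1 and 274 and 283 CPM under hairpin 2, against 226 and 202 CPM in control cocultures and 152 and 148 CPM in control cells alone. No library of one step overlapped the next. The log2 difference was 0.36 (SE 0.080) for both hairpins over the control coculture and 0.51 (SE 0.091) for the control coculture over control cells alone. Its relative LDLRAD4, which shares this mode of action (ENSG00000168675.14), was at 6.18 and 7.82 CPM under hairpin 1 and 5.50 and 5.69 CPM under hairpin 2, against 2.83 and 2.52 CPM in control cocultures and 2.70 and 2.52 CPM in control cells alone. The control groups overlapped and every depleted library lay far above them. Depleted cells had 2.33-fold the level of the control coculture, a log2 difference of 1.22 (SE 0.131) that exceeded those of 99.9% of tested genes, while the control coculture and control cells alone differed by 0.040 (SE 0.160). BAMBI, a pseudoreceptor that lacks a kinase domain (ENSG00000095739.7), was at 15.7 and 14.6 CPM under hairpin 1, 15.5 and 16.3 CPM under hairpin 2, 17.4 and 18.6 CPM in control cocultures and 14.3 and 15.6 CPM in control cells alone. It was highest in the control coculture, with a log2 difference of -0.21 (SE 0.073) for both hairpins over the control coculture and 0.27 (SE 0.085) for the control coculture over control cells alone.

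The growth-arrest genes stepped like SMAD7. CDKN2B, which encodes the CDK4 and CDK6 inhibitor p15 (ENSG00000147883.9), was at 17.1 and 17.8 CPM under hairpin 1 and 13.0 and 12.6 CPM under hairpin 2, against 10.3 and 10.7 CPM in control cocultures and 7.51 and 7.24 CPM in control cells alone. All 4 groups were apart from each other. The log2 difference was 0.51 (SE 0.068) for both hairpins over the control coculture and 0.51 (SE 0.081) for the control coculture over control cells alone. The library kit does not mark strand. CDKN2B-AS1, the antisense RNA at this locus, had 0 to 6 counts and LDLRAD4-AS1 had 0, while the antisense gene NKILA, which overlaps 343 bases of PMEPA1 exons in GENCODE 29, has no entry in the count table, so its reads cannot be told apart from those of PMEPA1. KLF10, a zinc finger repressor first described as TGF-beta-inducible early gene (ENSG00000155090.10), was at 64.3 and 68.6 CPM under hairpin 1 and 64.8 and 62.6 CPM under hairpin 2, against 54.0 and 53.8 CPM in control cocultures and 42.8 and 44.7 CPM in control cells alone. No library of one step overlapped the next, with log2 differences of 0.27 (SE 0.057) and 0.30 (SE 0.066) for the steps of depletion and of astrocytes.

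Read as steps, 5 of the 10 members (SMAD7, SKIL, PMEPA1, KLF10 and CDKN2B) passed the threshold of adjusted p = 0.05 upward both with astrocytes and with Cx43 depletion (edgeR quasi-likelihood test, adjusted over all tested genes). Of all tested genes 16, or 0.101%, did so. The members were chosen with these comparisons known, so nothing is read from that count, and the comparisons share the control coculture. Without either hairpin 2 library or either control coculture library 1 member remained, and without library 1 and library 2 of control cells alone 3 and 2 remained.

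By comparison, 6 members were called higher for both hairpins over the control coculture (those 5 and LDLRAD4), where 3.37% of tested genes were, and none lower, where 5.85% were. With astrocytes 6 were called higher (those 5 and TGIF1), where 8.74% of tested genes were, and none lower, where 2.93% were. The median log2 difference of the members was 0.30 with depletion and 0.42 with astrocytes, beside -0.00798 and -0.00256 over all tested genes. The depletion count came to 2 without either hairpin 2 library or either control coculture library. The astrocyte count came to 3 without library 1 of the control coculture or library 2 of control cells alone, and to 4 without library 1 of control cells alone. These are the comparisons the members were chosen on, and the counts are no test of them. Non-overlap of libraries was common: 7 members lay wholly above the control coculture after depletion, where 16.4% of tested genes did, and SMAD6, BAMBI and TGIF1 lay wholly below, where 18.1% did. With astrocytes 8 lay wholly above control cells alone, where 30% of tested genes did, and none below, where 26.3% did, SKI and LDLRAD4 overlapping.

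The depleted cocultures were also set against control cells alone, which spans both steps. SKIL was 2.28-fold, LDLRAD4 2.40-fold, CDKN2B 2.03-fold, PMEPA1 1.82-fold, SMAD7 1.73-fold and KLF10 1.49-fold the level of control cells alone. TGIF1 was at 1.24-fold, SKI at 1.14-fold, SMAD6 at 1.09-fold and BAMBI at 1.04-fold. Called higher were 7 members, where 10.8% of tested genes were. None was called lower, where 6.34% of tested genes were. In libraries, 8 members lay wholly above control cells alone, where 24.1% of tested genes did, SMAD6 and BAMBI overlapped them, and none lay below, where 20.6% did.

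**Figure D2:**
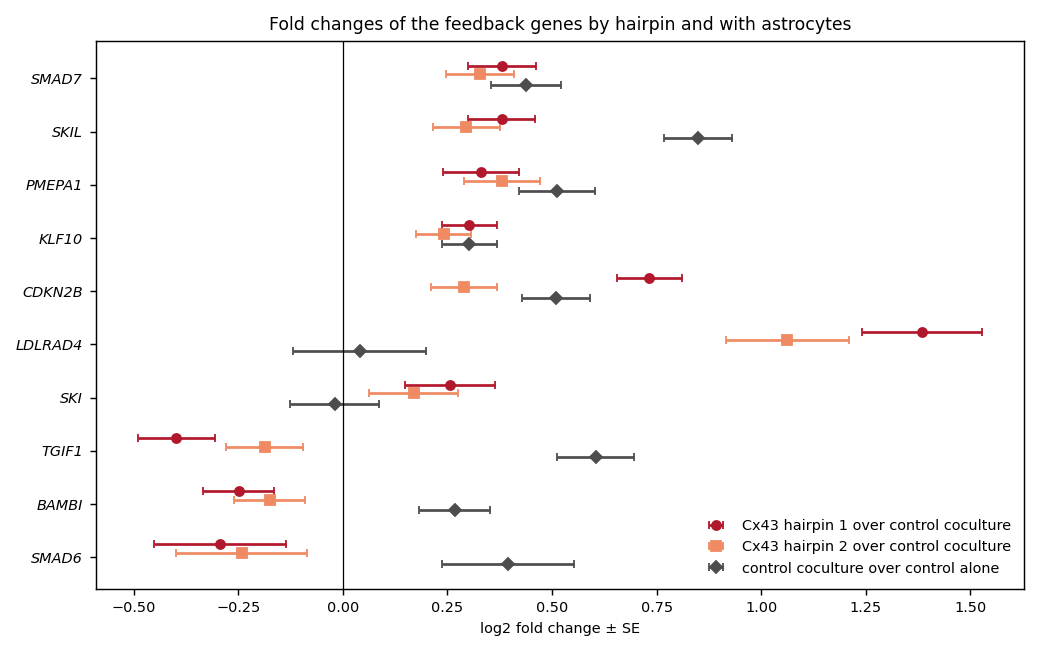
Log2 fold change with its standard error (x axis) of each feedback gene (rows) for hairpin 1 (circles) and hairpin 2 (squares) over the control coculture and for the control coculture over control cells alone (diamonds), 2 libraries a group. LDLRAD4 stands out on the hairpin side and SKIL on the astrocyte side, and TGIF1, BAMBI and SMAD6 lie on opposite sides of 0.

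Taken by hairpin, the direction was shared for all 10 members. The estimated sizes lay furthest apart for CDKN2B, at log2 differences from the control coculture of 0.73 (SE 0.077) with hairpin 1 and 0.29 (SE 0.078) with hairpin 2. No difference between the hairpins passed for a member, as given below. For SMAD7 the log2 difference from the control coculture was 0.38 (SE 0.081) with hairpin 1 and 0.33 (SE 0.082) with hairpin 2, for SKIL it was 0.38 (SE 0.080) and 0.30 (SE 0.080), and for PMEPA1 it was 0.33 (SE 0.091) and 0.38 (SE 0.091). Both hairpins share their control libraries. With hairpin 1, 5 members were called higher, where 3.09% of tested genes were, and TGIF1 lower, where 4.73% were. With hairpin 2, LDLRAD4 alone was called higher, where 0.962% of tested genes were, and none lower, where 3.2% were. Those counts ran from 2 to 8 and from 0 to 4 without 1 library. With hairpin 1 the count came to 2 without library 2 of hairpin 1, either library of hairpin 2 or either library of the control coculture. With hairpin 2 it came to 0 without either of its own libraries and to 4 without either hairpin 1 library.

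The choice of members did not use the difference between the hairpins, which was therefore tested. None of the 10 members passed (edgeR quasi-likelihood test, adjusted p = 0.251 for CDKN2B and 0.705 to 0.937 for the rest), where 0.0316% of tested genes did. At an unadjusted p under 0.05 there were 3 members, against 6.86% of all tested genes, and DESeq2 also called 0. CDKN2B was lower with hairpin 2 than with hairpin 1 by a log2 difference of -0.44 (95% interval -0.61 to -0.27), LDLRAD4 by -0.32 (-0.62 to -0.027), and TGIF1 was at 0.21 (0.00215 to 0.42). Without a filter on low counts CDKN2B passed (edgeR adjusted p = 0.012), and over the alternatives its adjusted p ran from 0.012 to 1. In libraries, CDKN2B and LDLRAD4 lay wholly lower with hairpin 2, where 19.2% of tested genes did, and TGIF1 wholly higher, where 18.2% did. In the 6 lists of other pathway genes none passed either, the nearest being the cytokine gene IL11 (0.45, SE 0.072, adjusted p = 0.216), which passed with DESeq2 (adjusted p = 0.00484) and without a filter on low counts (edgeR adjusted p = 0.000586) and had an adjusted p of up to 1 without a library. For SMAD7 the interval ran from -0.23 to 0.13, for SKIL from -0.26 to 0.095, for PMEPA1 from -0.16 to 0.26 and for KLF10 from -0.21 to 0.086, so a difference of the size of the depletion step itself lay outside each of these intervals. Residual GJA1 was 0.24 higher with hairpin 2 (SE 0.074, adjusted p = 0.705), and its part in the CDKN2B and LDLRAD4 differences was not tested.

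**Figure D3:**
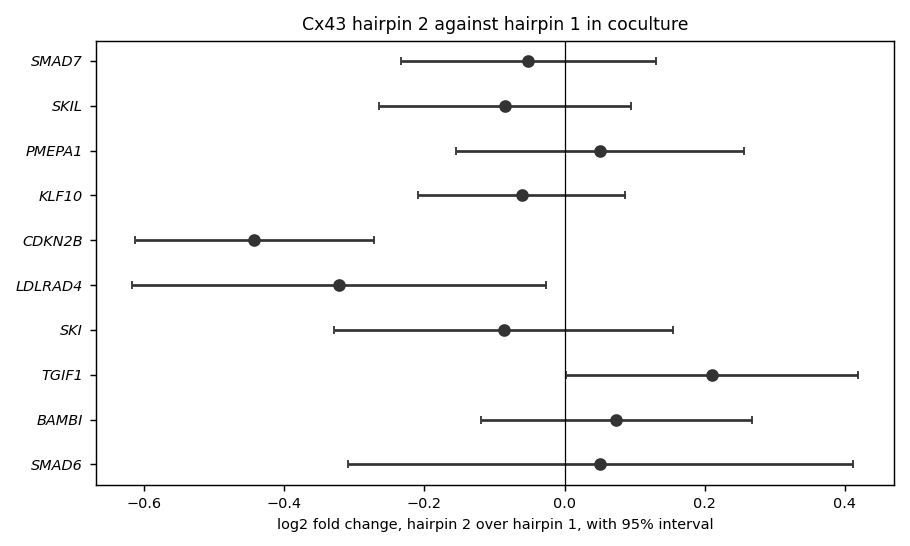
Log2 fold change of hairpin 2 over hairpin 1 in coculture (x axis) with its unadjusted 95% interval for each feedback gene (rows), 2 libraries a group. The intervals of CDKN2B, LDLRAD4 and TGIF1 leave out 0, and no member passed after adjustment over all tested genes.

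Levels can be compared between members only per length, here over the merged exons of GENCODE 29, which need not be the authors' annotation. PMEPA1 was at 47.8 CPM per kb with hairpin 1, 49.5 with hairpin 2, 38.03 in the control coculture and 26.7 in control cells alone. SKI was at 37.0 CPM per kb with hairpin 1, 34.8 with hairpin 2, 31.0 in the control coculture and 31.4 in control cells alone. PMEPA1 was thus the highest of the 10 in the cocultures, and SKI in control cells alone. KLF10 and TGIF1 at 8.87 to 16.6. LDLRAD4 and SMAD6 were the lowest, at 0.156 to 0.418 and 0.332 to 0.438 CPM per kb. Of the 10 members LDLRAD4 thus had the lowest level per length in the control coculture and the largest log2 difference with depletion.

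Over the 8 libraries the log2 levels of SMAD7, SKIL, PMEPA1, KLF10 and CDKN2B ran together, with Pearson's r of 0.894 to 0.990 between pairs, as a description of libraries that share their group. TGIF1 and BAMBI had r of 0.861 with each other, SMAD6 had r of 0.731 with BAMBI and 0.649 with TGIF1, and BAMBI had r of 0.0293 with SMAD7. Among the 11997 genes that averaged 100 counts or more, the nonmembers most like SMAD7 were ZFAND4, CDC42SE1 and SLC6A9, with r of 0.991, 0.990 and 0.990. Those most like LDLRAD4 were FAM91A1, CHIC1 and RPS6KB1, with r of 0.994, 0.993 and 0.990. CHIC1, for example, averaged 31.1 CPM under hairpin 1, 28.8 with hairpin 2, 22.3 in the control coculture and 22.5 in control cells alone.

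The rest of the pathway was followed in the same edgeR fit over all genes. These gene lists were also chosen with earlier results of these data known. Their counts and medians with depletion and with astrocytes, here and below, are therefore a description. With depletion 3.37% of all tested genes were called higher and 5.85% lower. Of 14 receptors 3 rose and none fell. They were TGFBR1, the type I kinase receptor (0.33, SE 0.080, adjusted p = 0.0382), TGFBR2, its type II partner (0.25, SE 0.065, adjusted p = 0.0475), and the BMP receptor BMPR1B (0.40, SE 0.104, adjusted p = 0.0475). TGFBR2 averaged 860 ± 46.5 CPM under hairpin 1 and 881 ± 27.1 CPM under hairpin 2, against 733 ± 39.6 CPM in control cocultures (SD, n = 2 each). These calls depended on single libraries: TGFBR1 and BMPR1B kept theirs without either hairpin 1 library alone, and TGFBR2 without library 1 of hairpin 1 alone, while the removal of any other library ended them (adjusted p up to 0.2, 0.224 and 0.276 for TGFBR1, BMPR1B and TGFBR2). All 3 calls also ended in fits of only the groups compared (adjusted p = 0.058, 0.0596 and 0.0689 in the same order). Of 13 ubiquitin enzymes 1 rose, SMURF2, the ligase that SMAD7 brings to the receptor, at 725 ± 51.3 CPM under hairpin 1 and 683 ± 30.2 CPM under hairpin 2, against 531 ± 17.9 CPM in control cocultures (0.41, SE 0.065, adjusted p = 0.00748). That call did not survive removal of control coculture library 2 (adjusted p = 0.0751). None of 13 SMADs and partners was called, with TRIM33, a ubiquitin ligase of SMAD4, nearest (0.23, adjusted p = 0.0535), which passed with RLE factors or a mean count of at least 50.

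Outside the feedback genes, other genes that TGF-beta or BMP is known to induce were followed too, as a description. With depletion 1 of 30 rose and 10 fell, where 3.37% of all tested genes rose and 5.85% fell, and their median log2 difference was -0.24, beside -0.00798 over all tested genes. ID1, an inhibitor of differentiation induced by BMP, was at 20.2 ± 1.04 CPM under hairpin 1 and 24.0 ± 1.14 CPM under hairpin 2, against 38.7 ± 5.35 CPM in control cocultures (-0.81, SE 0.086, adjusted p = 0.000806). In control cells alone ID1 was at 20.7 ± 0.872 CPM, and it rose by 0.90 with astrocytes (SE 0.102, edgeR adjusted p = 0.000747). Its relative ID3 went the other way with astrocytes, at 14.0 CPM in control cocultures against 26.7 CPM in control cells alone (-0.93, SE 0.176, edgeR adjusted p = 0.0112). ID2 was also lower there and was not called (-0.25, SE 0.197). The AP-1 subunit JUNB fell by 0.52 (SE 0.056, adjusted p = 0.000885) and the matricellular CYR61 by 0.48 (SE 0.067, adjusted p = 0.00391), CYR61 passing no longer once control coculture library 2 was removed. JUNB averaged 59.1 and 68.4 CPM with the hairpins and 55.3 CPM in control cells alone. It rose by 0.72 with astrocytes (SE 0.066, edgeR adjusted p = 0.000196). CYR61 averaged 528 and 499 CPM with the hairpins, below the 633 CPM of control cells alone. HMGA2, a chromatin architectural factor, was the gene that rose (0.42, SE 0.058, adjusted p = 0.00355). Several of these, JUNB among them, also respond to other signals. The secreted antagonists FST, which binds activins (-0.49, SE 0.077, adjusted p = 0.00686), and GREM1, which binds BMPs (-0.36, SE 0.059, adjusted p = 0.00822), fell, 2 of 8 tested. FST did not pass once control coculture library 2 was removed (adjusted p = 0.0935), nor GREM1 once either was (adjusted p up to 0.0698).

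**Figure D4:**
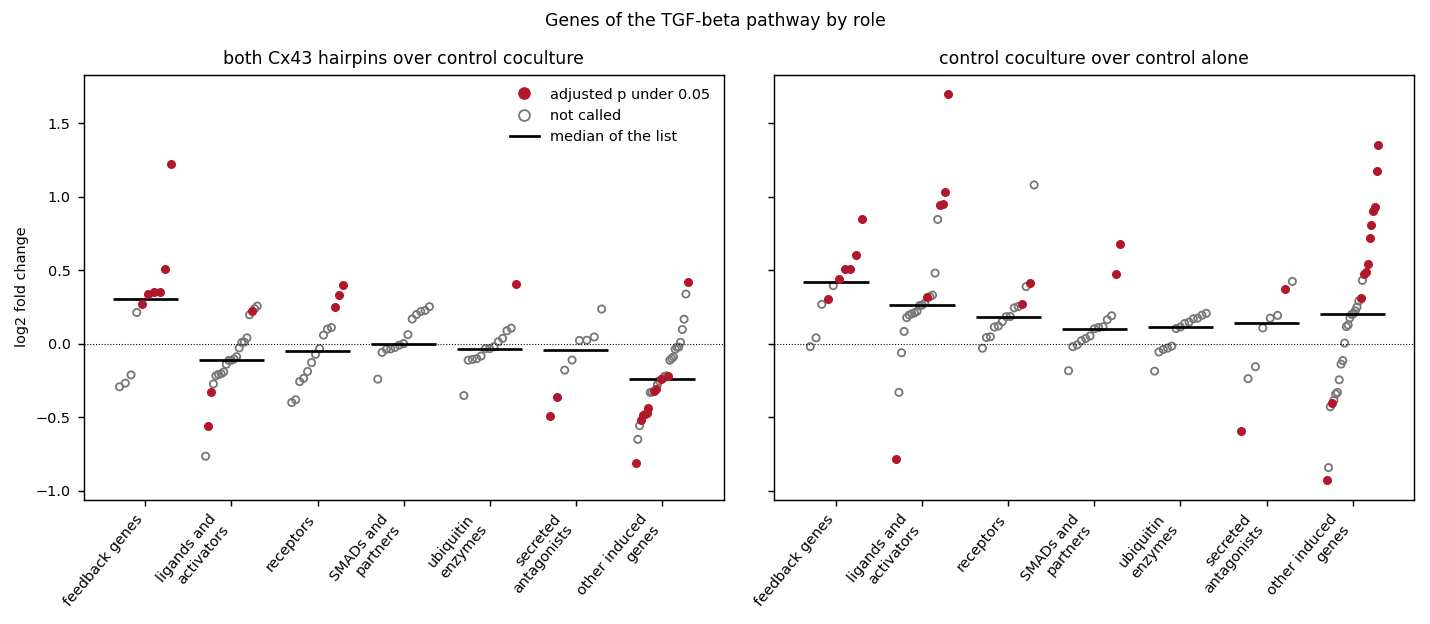
Log2 fold change (y axis) of every tested gene in the feedback list and 6 other lists of the pathway (x axis), for both Cx43 hairpins over the control coculture (left) and the control coculture over control cells alone (right), with filled points for adjusted p under 0.05 and a line at each list's median. With depletion the feedback genes have a median of 0.30 and the other induced genes one of -0.24, and with astrocytes both medians lie above 0, at 0.42 and 0.20.

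With astrocytes 8.74% of all tested genes were called higher and 2.93% lower, with a median log2 difference of -0.00256. Of 21 tested ligands and activators 5 rose and 1 fell, with a median of 0.26. TGFB3 was at 16.4 ± 2.29 CPM in control cocultures against 5.06 ± 0.00880 CPM in control cells alone (1.70, SE 0.145, adjusted p = 0.000129), BMP2 was higher by 0.94 (SE 0.108, adjusted p = 0.000773), and ITGB8, an integrin subunit that releases latent TGF-beta, by 1.03 (SE 0.148, adjusted p = 0.00271). The activin subunit gene INHBB fell by 0.78 (SE 0.100, adjusted p = 0.00143). With depletion this list gave 1 rise and 2 falls: ITGAV, the integrin partner of ITGB8, rose by 0.22 (SE 0.055, adjusted p = 0.0399), and GDF15 (-0.56, SE 0.119, adjusted p = 0.0241) and BMP4 (-0.33, SE 0.077, adjusted p = 0.0347) fell. ITGAV kept that call without library 1 of hairpin 1 alone (adjusted p up to 0.182), BMP4 without either hairpin 1 library alone (up to 0.297), and both lost it in fits of only the groups compared. GDF15 lost its call without either library of hairpin 2 or of the control coculture (up to 0.19).

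SMAD3, the SMAD that TGF-beta receptors activate, was at 179 ± 11.2 CPM in control cocultures against 111 ± 1.39 CPM in control cells alone (0.68, SE 0.081, adjusted p = 0.000951). It was at 178 ± 16.9 CPM under hairpin 1 and 170 ± 1.95 CPM under hairpin 2. Of 13 SMADs and partners 2 rose with astrocytes, where 8.74% of all tested genes did, SMAD3 and the BMP-activated SMAD1 (0.47, SE 0.109, adjusted p = 0.0257). The call of SMAD1 ended without either hairpin 2 library, library 1 of the control coculture or library 1 of control cells alone (adjusted p up to 0.178), and in fits of only the groups compared. Among receptors 2 of 14 rose, BMPR2 (0.41, SE 0.075, adjusted p = 0.00913) and ACVR1B (0.27, SE 0.071, adjusted p = 0.0445). BMPR2 did not pass once control coculture library 1 or either lone-culture library was removed (adjusted p up to 0.0748), and ACVR1B kept its call without either hairpin 1 library alone (up to 0.235) and lost it with DESeq2, with no filter on low counts and in fits of only the groups compared. Other induced genes had 10 rises and 2 falls in 30, with a median of 0.20, where 2.93% of all tested genes fell. The falls were ID3 (-0.93, SE 0.176, edgeR adjusted p = 0.0112) and TAGLN (-0.40, SE 0.083, edgeR adjusted p = 0.0159). FN1, COL4A1, COL7A1 and TGFBI also averaged less in control cocultures but were not called. FN1 differed by -0.84 (SE 0.365), with its lone-culture libraries far apart at 1185 and 414 CPM. The transglutaminase TGM2 was at 159 ± 11.7 CPM in control cocultures against 62.2 ± 6.61 CPM in control cells alone (1.35, SE 0.100, adjusted p = 5.11e-05), and ANGPTL4, a secreted lipase inhibitor, at 28.5 ± 0.214 against 12.7 ± 0.639 CPM (1.17, SE 0.076, adjusted p = 2.17e-05). Among antagonists 1 of 8 rose and 1 fell, GREM1 by 0.38 (SE 0.069, adjusted p = 0.00988) and the BMP binder NOG by -0.59 (SE 0.085, adjusted p = 0.00267). GREM1 did not pass once control coculture library 1 or either lone-culture library was removed (adjusted p up to 0.0754). None of the 13 ubiquitin enzymes was called, and UCHL5 was nearest (-0.19, adjusted p = 0.0906).

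VIM, a mesenchymal marker of the line, averaged 1489 CPM under hairpin 1, 1365 CPM under hairpin 2, 2135 CPM in control cocultures and 1411 CPM in control cells alone. VIM was highest where TGIF1, BAMBI and SMAD6 were. Of the 8 line markers listed, 2 were called higher with astrocytes, VIM and KRT8, where 8.74% of all tested genes were. None was called lower, where 2.93% were. AXL, CAV1 and EGFR went the other way, averaging 1176, 361 and 184 CPM in control cocultures against 1484, 394 and 197 CPM in control cells alone. Markers of other cells moved with some of these groups. The 10 astrocyte markers, 7 of them with a mean count of at least 10, summed to 63.8 and 72.2 CPM under hairpin 1, 58.4 and 58.3 CPM under hairpin 2, 71.4 and 70.0 CPM in control cocultures and 55.6 and 51.5 CPM in control cells alone. Of the 7 tested, GFAP, SLC1A3 and SOX9 were called higher with astrocytes, where 8.74% of all tested genes were. With depletion 1 was called lower, SLC1A3, where 5.85% of all tested genes were. ALDH1L1 and FGFR3, not called, went the other way with astrocytes. They averaged 1.13 and 1.84 CPM in control cocultures against 1.30 and 2.33 CPM in control cells alone. ALDOC and SLC1A2 averaged 1.01 and 0.211 CPM against 0.635 and 0.167 CPM. SOX9 made up most of the sums, at 47.7 against 37.6 CPM. GFAP was at 16.5 and 16.9 CPM under hairpin 1, 11.7 and 12.2 CPM under hairpin 2, 13.8 and 12.8 CPM in control cocultures and 8.80 and 8.53 CPM in control cells alone. SLC1A3, a glutamate transporter, was at 3.65 and 3.57 CPM under hairpin 1, 4.10 and 3.89 CPM under hairpin 2, 5.01 and 5.61 CPM in control cocultures and 2.67 and 3.04 CPM in control cells alone. The markers AQP4, S100B and GJB6 did not exceed 0.169, 0.0514 and 0.0241 CPM in any library. The 7 microglia and macrophage markers summed to 4.14 and 3.77 CPM under hairpin 1, 3.06 and 3.41 CPM under hairpin 2, 5.58 and 5.31 CPM in control cocultures and 2.89 and 3.66 CPM in control cells alone. Of these, 2 were tested and both were called higher with astrocytes, where 8.74% of all tested genes were. CSF1R was at a mean of 1.45 CPM in control cocultures against 0.649 CPM in control cells alone and CD68 at 3.77 against 2.45 CPM. CD68 was called lower with depletion, where 5.85% of all tested genes were, at 2.35 CPM under hairpin 1 and 1.89 CPM under hairpin 2. AIF1 and TYROBP had 0 counts in every library. CX3CR1, ITGAM and PTPRC did not exceed 0.0257, 0.125 and 0.314 CPM in any library. The 6 fibroblast markers summed to 421 and 496 CPM under hairpin 1, 485 and 470.0 CPM under hairpin 2, 795 and 741 CPM in control cocultures and 1052 and 648 CPM in control cells alone. COL1A1 made up most of these sums, at a mean of 628 CPM in control cocultures against 675 CPM in control cells alone. PDGFRB went the other way, at 8.27 against 4.64 CPM. Of the 5 tested, 1 was called higher with astrocytes, where 8.74% of all tested genes were. The part of all these markers in the levels of the feedback genes was not tested.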

How the data were processed

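Counts per gene were deposited by the authors as whole numbers for 8 libraries in 4 groups, although the table is named as normalized. Per the submitters' processing notes TopHat2, HTSeq, DESeq2 and hg19 were used, without versions or roles; the counting mode, annotation and strand setting are not given in the sources used here. Median-of-ratios factors of 0.892 to 1.14 and whole values in each column led to their treatment as raw counts. The 5 counter entries (alignments not unique, 14.2% to 26.1%, ambiguous reads, 2.63% to 3.20%, no feature, 3.77% to 4.53%, and not aligned, 4.72% to 5.45%, of a column's total) were left out, and 0 columns were unmapped.

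The 15806 of 57445 genes averaging 10 counts or more were tested in R 4.3.3 with edgeR 4.0.16, quasi-likelihood, TMM factors (0.976 to 1.03), 4 group means and Benjamini-Hochberg adjustment over all tested genes at 0.05. The common biological coefficient of variation was 7.67%. CPM use TMM-scaled totals. The fit was tested on simulated data. Alternatives were RLE factors, DESeq2 1.42.0, no filter, a mean count of at least 50, a replicate block, only the groups compared, and each library left out.

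The members and gene lists were chosen with earlier results of these data known. Named were all members, GJA1, up to 4 genes per list and contrast with the smallest p, and the 3 genes most correlated with SMAD7 and with LDLRAD4. Promoters are RefSeq's (GRCh38.p14), not the authors' build, and serve for sequence only. SKI and KLF10 were not matched there.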

Additional observations from a re-analysis of the deposited data

How the results depend on the processing

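Among 1927 values of named genes under the alternatives, 1725 kept direction and side of the threshold, 147 lost the call, 42 gained it and 13 changed sign, all of these with a library left out and none called. Without a library, the log2 difference of hairpin 2 over hairpin 1 ran from -0.13 to 0.017 for SMAD7, -0.046 to 0.14 for SMAD6, -0.18 to 0.00271 for SKIL, -0.25 to 0.082 for SKI, -0.069 to 0.17 for PMEPA1 and -0.28 to 0.016 for CREBBP. With astrocytes it ran from -0.098 to 0.038 for SKI and -0.045 to 0.10 for LDLRAD4, with depletion from -0.21 to 0.00723 for NOG, and for depleted cells over control cells alone from -0.071 to 0.34 for SMAD6 and -0.020 to 0.11 for BAMBI.

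Genes called without a library ranged from 738 to 2582 with astrocytes (1844 in all libraries), 281 to 2405 with hairpin 1 (1236), 150 to 1101 with hairpin 2 (658), 343 to 2314 with depletion (1457), 531 to 4717 for depleted cells over control cells alone (2709) and 0 to 3 between the hairpins (5). Members called ranged from 3 to 6, 2 to 8, 0 to 4, 2 to 8, 6 to 8 and 0 to 0 in the same order, and genes and members called higher in both steps from 1 to 53 (16 in all) and 1 to 5 (5 in all). A lone library left in a group is assumed to vary like the others. Both steps had 53 genes without library 1 of hairpin 1 and 1 gene without library 1 of the control coculture.

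With no filter on low counts 2805 genes were called with astrocytes, 2269 with hairpin 1, 1191 with hairpin 2, 4117 for depleted cells over control cells alone, 304 between the hairpins and 25 in both steps, with 4 members for hairpin 2 and 1 between the hairpins. Hairpin 2 had 2 members with RLE factors, 2 with DESeq2, 3 at a mean count of at least 50 and 4 in fits of only the groups compared, where hairpin 1 had 2 members and 236 genes and the hairpins differed in 2 genes. Between the hairpins DESeq2 called 18 genes and the stricter filter 3. The cause was not tested.

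Replicate numbers did not pair the libraries in the same direction over all groups: correlations of same-numbered deviations ran from -0.644 to 0.38. They were 0.26 between the Cx43 hairpins and 0.38 between the control groups. Between a Cx43 hairpin and a control group all were negative, from -0.644 to -0.0915. A block on replicate number cannot take out variation that runs in opposite directions between groups, and the source of the pattern was not tested. With the replicate block 1160 genes were called with astrocytes, 446 with hairpin 1, 319 with hairpin 2, 700 with depletion, 1502 for depleted cells over control cells alone, 0 between the hairpins and 4 in both steps, with 3 members for hairpin 1, 3 for depletion and 2 in both steps. At this depth 3 counts are 0.0624 to 0.0805 CPM, well under every member. In the pathway lists, the astrocyte calls of ACVR1B and SMAD1 and the depletion calls of GDF15, BMP4, ITGAV, TGFBR1, TGFBR2 and BMPR1B also ended with the block (adjusted p of 0.0511 to 0.106), and ITGAV without a filter on low counts, where ACVRL1 gained a call with astrocytes and CREBBP and USP11 with depletion.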

Other observations

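Apart from the 5 feedback genes, 11 genes were called higher both with astrocytes and with Cx43 depletion, and they are named after their values were seen (means of 2 libraries a group). Without library 1 of the control coculture 1 gene in all passed both. SESN3, a stress-induced sestrin, averaged 91.8 CPM under hairpin 1 and 83.3 CPM under hairpin 2, against 55.2 CPM in control cocultures and 38.7 CPM in control cells alone, a log2 difference of 0.67 (SE 0.087, edgeR adjusted p = 0.00251) with depletion and 0.51 (SE 0.099, adjusted p = 0.012) with astrocytes. SLC26A2, a sulfate transporter, averaged 108 and 102 CPM with the hairpins, against 78.7 CPM in control cocultures and 64.2 CPM in control cells alone. VGLL3, a TEAD cofactor, averaged 71.8 and 66.5 CPM with the hairpins, against 56.6 CPM in control cocultures and 38.9 CPM in control cells alone. The phosphodiesterase PDE4D averaged 33.4 and 34.6 CPM with the hairpins, against 25.9 and 19.5 CPM in control cells with and without astrocytes. The others were FIBIN, ITGAV, OLFM2, RP11-220I1.1, SLC6A9, TMTC3 and TP53INP1, and SLC6A9 is also among the genes most correlated with SMAD7.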
